A study of Mus musculus with 16 samples.

Results

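Interleukins and their receptors were examined in naive CD4 and CD8 T cells of mice with and without GABPα, the DNA-binding subunit of the transcription factor GABP. The members were the genes whose symbol in the platform's gene table begins with Il and a digit. Each was read by a probe set that named this gene alone, and where several did, by the 1 with the highest mean over the 16 arrays. These were 66 of the 12394 genes measured, and 19 of them had several probe sets. By family they comprised 11 ligands and antagonists of the IL-1 and IL-18 group and 7 of its receptor chains, 6 cytokines of the common gamma chain group and 7 of its receptor chains, 8 genes of the IL-3, IL-5 and IL-13 group, 5 ligands and 5 receptor chains of the IL-6 and IL-12 group, 9 genes of the IL-17 family, 5 of the IL-10 family and 3 others (Il16, Il34 and Il4i1). Il31ra, the IL-31 receptor chain, was counted in the IL-3 group and not among the IL-6 and IL-12 receptor chains.

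Interleukins are secreted proteins through which leukocytes instruct each other and themselves, and each is read by a surface receptor of usually several chains. Many receptors share a chain: the common gamma chain serves IL-2, IL-4, IL-7, IL-15 and IL-21, gp130 serves the IL-6 family, and these receptors signal through Janus kinases and STAT factors, whereas the IL-1 and IL-18 receptors signal through MyD88. A naive T cell lives on IL-7. After its antigen receptor is engaged it makes IL-2, acquires the high-affinity IL-2 receptor and lowers the IL-7 receptor.

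The WT groups came from Gabpa f/f mice, and the KO groups from CD4Cre Gabpa f/f mice, in which the CD4Cre transgene acts from the double-positive thymocyte stage, before cells commit to CD4 or CD8. The mice were on a C57BL/6 background, and both genotypes carried the floxed alleles; the age of the mice used for the arrays is not given in the sources used here. Naive cells, gated as CD25-, CD62L high and CD44 low, were sorted from spleen and lymph nodes, and RNA was taken either at once (0 h) or after 18 h with antibodies to CD3 and CD28 plus added IL-2. The gate removed cells with the Il2ra product, CD25, on their surface, and IL-2 was present in all stimulated cultures. There were thus 8 groups (CD4 or CD8, WT or KO, 0 h or 18 h) of 2 arrays each, 16 in all. Each sort was divided between the 0 h sample and the stimulated one, so that arrays at 0 h and 18 h of 1 lineage and genotype share their sorted cells. The arrays are labelled as biological replicates, the labels do not say how many mice a sort took, and the p-values speak only of the scatter among these arrays. A second fit held the replicate number as a block within each lineage. It kept all 91 calls of members made without the block and added 23, which are given below as calls with the block.

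Signal was given on the log2 scale, on which a difference of 1 is a doubling, and array medians lay between 5.24 and 5.43. A gene was called when its adjusted p in limma was under 0.05 and its fold change over 1.5, and differences are given ± SE of the fit with n = 2 arrays in each group. The mean 3′ to 5′ difference of the actin and Gapdh control probe sets, a sign of RNA integrity, was 3.76 in CD8 KO 18 h replicate 2, 1.58 in CD4 WT 0 h replicate 1, 1.11 in CD8 KO 0 h replicate 2 and between 0.46 and 0.85 in the others. Cd8a was between 4.42 and 7.56 in the CD4 arrays and between 10.9 and 12 in the CD8 arrays, and Cd4 was between 6.34 and 7.26 and between 4.78 and 5.59. The highest Cd8a among CD4 arrays was 7.56 in WT 0 h replicate 1, followed by 6.85 in WT 18 h replicate 1. Gabpa itself was not lower in the arrays labelled KO, at 9.09 to 9.79 against 8.74 to 9.34 in WT. Where its probe set lies relative to the deleted part is not given in the sources used here, so this signal checks nothing about the deletion, and KO below means the arrays labelled so. By immunoblot, the study found GABPα protein hardly detectable in T cells from spleen and lymph nodes of KO mice.

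The results turn on 4 members in particular, and the 250 bases before the transcription start of each are shown because the factors that act on cytokine genes in stimulated T cells bind in such windows. The sequences are from RefSeq on build GRCm38.p6, read 5′ to 3′ in the direction of the gene. Capitals mark matches on either strand to CCGGAAG (a GABP and Ets motif), GGAAA (the core bound by NFAT) or TGANTCA (the AP-1 motif); the 3 do not overlap each other in these windows.
Il1a, chr2:129309973-129310222, minus strand: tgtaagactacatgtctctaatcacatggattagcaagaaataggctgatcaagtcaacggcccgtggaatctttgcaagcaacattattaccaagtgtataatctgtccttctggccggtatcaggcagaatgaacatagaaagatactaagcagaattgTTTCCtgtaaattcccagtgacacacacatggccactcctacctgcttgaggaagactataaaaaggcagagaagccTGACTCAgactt
Il2, chr3:37125955-37126204, minus strand: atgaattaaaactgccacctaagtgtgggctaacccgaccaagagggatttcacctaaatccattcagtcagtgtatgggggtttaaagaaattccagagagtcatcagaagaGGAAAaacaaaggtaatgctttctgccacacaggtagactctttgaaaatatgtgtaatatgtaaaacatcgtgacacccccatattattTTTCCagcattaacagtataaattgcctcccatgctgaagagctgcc
Il2ra, chr2:11642542-11642791, plus strand: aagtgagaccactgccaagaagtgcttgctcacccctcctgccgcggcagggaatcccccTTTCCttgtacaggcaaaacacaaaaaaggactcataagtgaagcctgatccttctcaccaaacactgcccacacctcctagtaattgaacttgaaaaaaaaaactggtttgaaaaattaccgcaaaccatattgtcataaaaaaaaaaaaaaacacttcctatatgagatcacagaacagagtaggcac
Il7r, chr15:9529877-9530126, minus strand: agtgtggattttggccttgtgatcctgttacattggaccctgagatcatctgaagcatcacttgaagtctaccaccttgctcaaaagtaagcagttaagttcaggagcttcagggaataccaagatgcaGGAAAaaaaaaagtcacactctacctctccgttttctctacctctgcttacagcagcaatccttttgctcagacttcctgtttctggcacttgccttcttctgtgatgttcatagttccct
The Il1a window held 1 GGAAA match, 89 to 85 bases before the start, and 1 AP-1 match, 12 to 6 bases before it. The Il2 window held 2 GGAAA matches, and those of Il2ra and Il7r held 1 each. CCGGAAG was not matched in these windows. It is stricter than the GGAA core of Ets factors, which also stands unmarked in all 4 windows, on 1 strand or both. The capitals thus do not show every site that such factors could bind. Of the 66 members, 51 had RefSeq windows, 64 in all, and Il10, Il10ra, Il10rb, Il12rb1, Il15, Il17b, Il17ra, Il1f6, Il23a, Il24, Il25, Il27ra, Il2rb, Il34 and Il7 had none given here. CCGGAAG was found in 3 of these 64 (4.7%, those of Il15ra, Il1f8 and Il20) and in 6.91% of all 32851 windows. GGAAA was found in 45 (70.3%) against 55.6%, and TGANTCA in 12 (18.8%) against 6.75%. These are matches of letters, given without a test.

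Most members had little signal. Genes of other tissues (23 measured, such as albumin and insulin genes) served as a guide to signal without transcript. Of these, Tnnt2 reached 8.02 and 7.43 in the CD4 KO arrays at 18 h, so not every value behind the guide need be without transcript. The guide was their 95th percentile, 5.63. Only 21 members had any group mean above it, and 45 had none. The median of the members' means was 3.95, against 5.88 for all genes. Signal also depends on the probes, so that the guide cannot show that a given gene is silent. A fold below is written as "at least" where every array of the dimmer group lay at or under this guide, and is then the brighter group's mean over the guide. No fold is given where both means lay under it. Receptor chains made up most of the bright members: 6 of the 7 common gamma chain receptor genes (Il2ra, Il2rb, Il4ra, Il7r, Il15ra and Il21r) and 4 of the 5 IL-6 and IL-12 receptor genes (Il6ra, Il6st, Il12rb1 and Il27ra) had a group mean above the guide. Among the 6 common gamma chain cytokines only Il2 did, among the 11 IL-1 and IL-18 ligands and antagonists Il1a and Il18bp did, and among the 5 IL-6 and IL-12 ligands and the 8 genes of the IL-3 group none did. The brightest of the last 2 groups were Il11, with a mean of 4.20 over the 16 arrays, and Il3ra, the alpha chain of the IL-3 receptor, with 4.55.

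**Figure D1:**
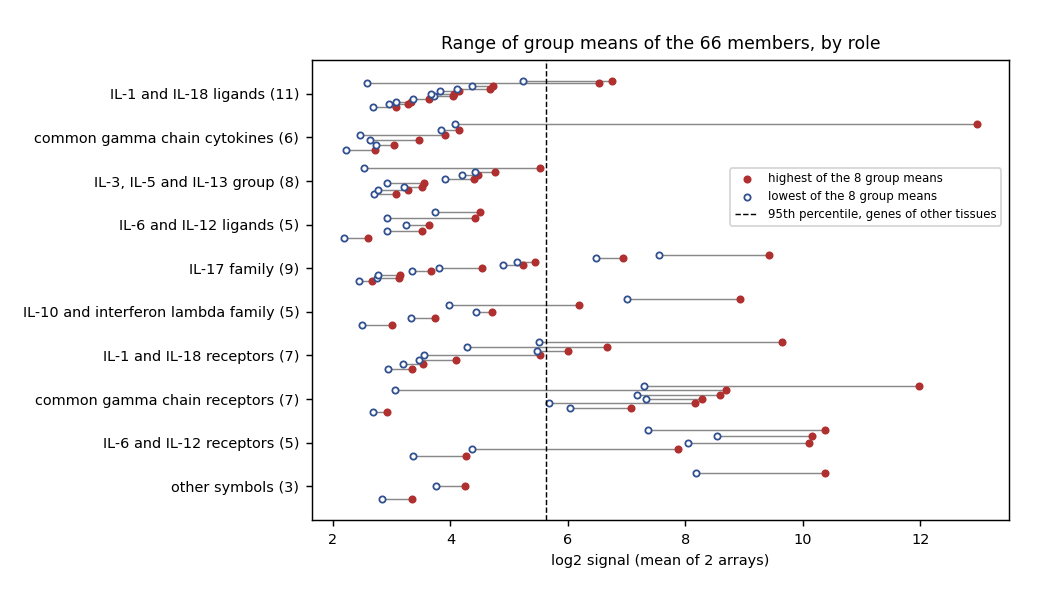
Lowest and highest of the 8 group means (log2 signal, mean of 2 arrays) of each of the 66 members, by family, with the number of members in brackets; the dashed line is the 95th percentile of the genes of other tissues, 5.63. A reader should see that 45 members lie wholly to its left, and that Il2, at the right of the second row, spans the widest range.

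Loss of GABPα was first compared in stimulated CD4 cells, where the IL-1 family agonist Il1a rose in the KO cells and in no WT group. Il1a encodes IL-1α, an alarm cytokine that myeloid and epithelial cells make in quantity. Its signal was 6.28 and 6.77 in the CD4 KO arrays at 18 h and 2.60 and 3.0 in the CD4 WT arrays at 18 h. At 0 h it was 2.67 and 3.09 in CD4 WT and 2.98 and 2.82 in CD4 KO cells. In CD8 cells it was 2.80 and 3.02 in WT 0 h, 2.71 and 2.75 in KO 0 h, 2.56 and 2.61 in WT 18 h and 3.37 and 3.55 in KO 18 h arrays. The CD4 KO 18 h arrays thus stood far above the other 14, and the CD8 KO 18 h arrays slightly above the other 12. In CD4 cells at 18 h the difference of KO and WT was 3.72 ± 0.20, or at least 1.86-fold (adjusted p = 3.48e-06), and it was called whichever of the 16 arrays was left out. Il1b, its neighbour and the other main IL-1 agonist, was not called in any comparison.

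Altogether 4 members (6.06%) were called between KO and WT in CD4 cells at 18 h, against 6.86% of all genes, so the share was near that of the genome. Il1r2 encodes the decoy receptor that binds IL-1 without signaling. It was 6.80 and 6.54 in the KO arrays and 4.81 and 5.11 in the WT arrays, without overlap, and rose at least 2.06-fold (1.71 ± 0.32, adjusted p = 0.00608). This call was lost without CD4 WT 18 h replicate 1 or CD4 KO 18 h replicate 1 (adjusted p = 0.057 to 0.0655). Il23a, the p19 subunit of IL-23, was 4.47 and 4.36 in KO and 3.10 and 3.02 in WT arrays. It was 1.36 ± 0.18 higher in KO (adjusted p = 0.000754), although all its values lay under the guide of 5.63. Il4, the cytokine of type 2 helper cells, was 2.64 and 2.75 in KO and 3.57 and 3.36 in WT arrays, also under the guide. It was lower in KO (-0.77 ± 0.20, adjusted p = 0.0314), a call that needed each of the 4 stimulated CD4 arrays (without 1 of them, adjusted p = 0.0791 to 0.2). Without CD4 KO 18 h replicate 1, the count was 2, and Il1a and Il23a were those called in every run with 1 array left out. With the block Il21r, the IL-21 receptor chain, was also called (0.65 ± 0.19, adjusted p = 0.05 after rounding up), and 9.81% of all genes were. In bulk samples, fewer cells that hold a transcript and less of it per cell cannot be told apart.

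Markers of other cells were set beside these changes. The 10 myeloid and dendritic cell markers, all measured, had a summed signal of 7.01 to 7.17 (log2) in CD4 KO and 6.77 to 7.03 in CD4 WT arrays at 18 h. Of these markers S100a8 was 4.16 and 2.90 in the KO arrays and 2.69 and 2.51 in the WT arrays, and Lyz2 was 4.0 and 3.63 against 3.60 and 3.96. S100a9, another of them, was 4.2 and 3.1 in the KO arrays and 2.9 and 3.4 in the WT arrays. The summed signal of the 23 genes of other tissues was 9.19 to 9.39 in CD4 KO and 8.60 to 8.68 in CD4 WT arrays at 18 h. Tnnt2, a heart muscle gene and 1 of these 23, was 8.02 and 7.43 against 4.07 and 3.34. Its 8.02 was the highest value of the 23 genes in any array. Such sums add unlogged signal and follow the brightest genes, so this one does not show that the others rose. NK and innate lymphoid markers (6 measured) summed to 7.78 to 7.87 in CD4 KO and 7.12 to 7.21 in CD4 WT arrays at 18 h. In CD4 WT arrays at 0 h these markers summed to 9.15 to 9.86, so this sum falls with stimulation and gives no share of NK cells. The 7 memory and effector markers summed to 9.46 to 9.91 and 10.10 to 10.28. Their sum in CD4 WT arrays at 0 h was 8.77 to 8.96, so it rises with stimulation. At 18 h it therefore does not give a share of memory cells. The part of any of these in the changes was not tested.

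**Figure D2:**
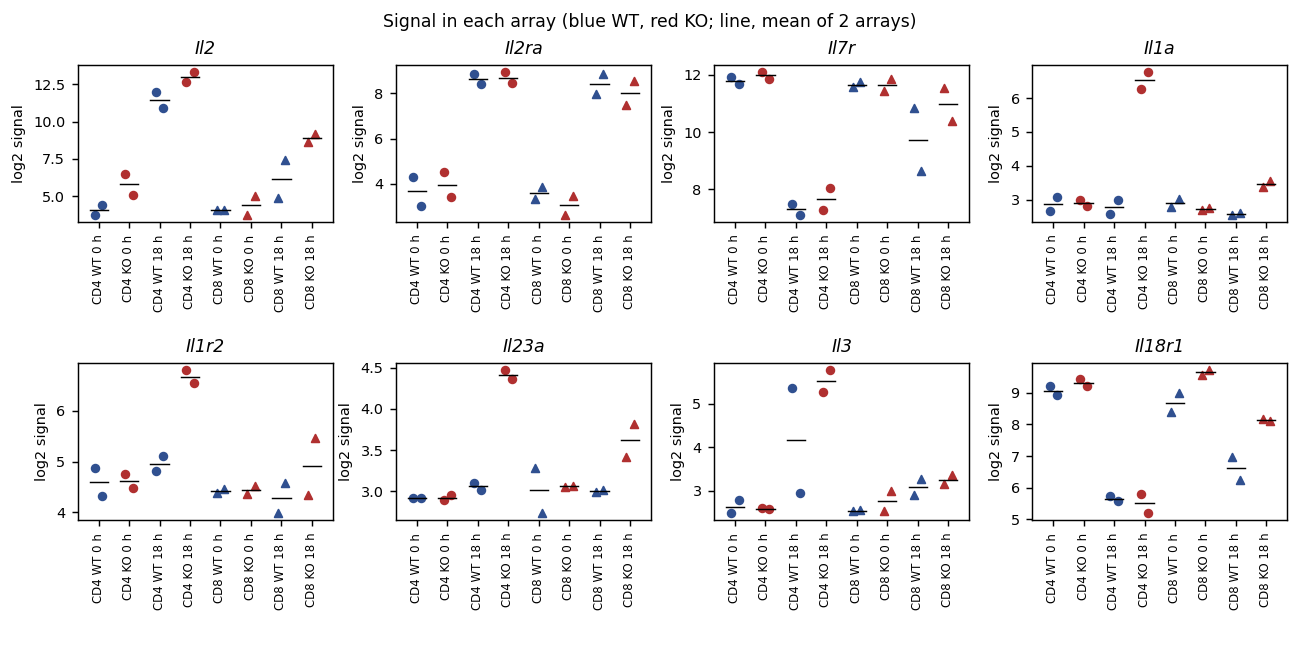
Signal (log2) of 8 members in each of the 16 arrays, by group; blue marks are WT, red marks KO, circles CD4, triangles CD8, and the line is the mean of 2 arrays. A reader should see Il1a, Il1r2 and Il23a highest in CD4 KO 18 h, and Il2, Il2ra and Il7r moving with time in both genotypes.

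The receptors and cytokines that define T cell activation were not called between KO and WT at 18 h without the block. Il2, the T cell growth factor, was 11.97 and 10.92 in CD4 WT and 12.62 and 13.31 in CD4 KO arrays at 18 h. Both KO values lay above both WT values, by 1.52 ± 0.71 on average (adjusted p = 0.293). In CD8 cells at 18 h it was 4.88 and 7.39 in WT and 8.62 and 9.15 in KO arrays, again without overlap, with a difference of 2.75 ± 0.71 (adjusted p = 0.0629). With the block this difference was called (2.75 ± 0.58, adjusted p = 0.02), in a fit that called 6.42% of all genes and 3 members. Il2ra, the alpha chain of the IL-2 receptor, was 8.85 and 8.41 in CD4 WT and 8.94 and 8.46 in CD4 KO arrays, a difference of 0.07 ± 0.52. Its CD8 values at 18 h were 7.95 and 8.86 in WT and 7.48 and 8.56 in KO (-0.39 ± 0.52). Genotypes overlapped for Il2ra in both lineages. Il7r, the alpha chain of the IL-7 receptor, differed at 18 h by 0.37 ± 0.55 in CD4 cells (adjusted p = 0.887) and by 1.24 ± 0.55 in CD8 cells (adjusted p = 0.281).

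In CD8 cells at 18 h, 2 members (3.03%) were called between KO and WT, against 2.75% of all genes. Il18r1, the ligand-binding chain of the IL-18 receptor, was 8.18 and 8.12 in KO and 6.96 and 6.25 in WT arrays, without overlap. It was 2.92-fold higher in KO (1.55 ± 0.27, adjusted p = 0.0105), a call lost without CD8 WT 18 h replicate 2 (1.19, adjusted p = 0.132). In CD4 cells at 18 h it was 5.81 and 5.20 in KO and 5.73 and 5.57 in WT arrays, which overlapped. Il1a was higher in CD8 KO than WT cells (0.88 ± 0.20, adjusted p = 0.0428), with all 4 values under 5.63, and this call was lost without any 1 of 9 arrays (adjusted p = 0.0612 to 0.218). When the 3 arrays with 3′ to 5′ differences above 1 were left out together, 0 members were called. Leaving out single arrays gave a count of 7 for CD8 KO 18 h replicate 1. It gave 1 for replicate 2 of either stimulated CD8 group, for any of the 4 unstimulated CD8 arrays and for either unstimulated CD4 KO array. In the same arrays the 6 measured markers of NK and innate lymphoid cells summed to 10.3 to 11.0 in KO and 8.90 to 9.92 in WT, led by Klrd1 at 10.2 to 10.9 against 8.68 to 9.77, and the 7 markers of memory and effector cells to 10.8 to 11.2 against 12.05 to 12.10 (Il2rb being 1 of the 7). The NK and innate lymphoid sum was 11.5 to 11.7 in CD8 WT arrays at 0 h, with Klrd1 at 11.4 and 11.6. It thus falls with stimulation and gives no share of NK cells. The memory and effector sum was 9.76 to 9.82 in CD8 WT arrays at 0 h, so at 18 h it also reads stimulation. The part of these markers in the Il18r1 difference was not tested.

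Few members were called in unstimulated cells. In CD4 cells at 0 h, 1 member (1.52%) was called, against 1.27% of all genes. This was Il21, a cytokine of follicular helper cells, which was 3.93 and 3.88 in WT and 2.63 and 2.58 in KO arrays. It was lower in KO (-1.30 ± 0.19, adjusted p = 0.00667), and in the other 14 arrays it lay between 2.27 and 2.94. The call was lost without replicate 1 of these WT arrays or without any of the KO pair (adjusted p = 0.0519 to 0.0657), each of which left 0 members called. Beside it, the 7 markers of memory and effector cells summed to 8.77 to 8.96 in CD4 WT and 7.92 to 8.44 in CD4 KO arrays at 0 h, and their part in the Il21 difference was not tested. The largest difference in these cells was that of Il2, which was 6.51 and 5.09 in KO and 3.76 and 4.43 in WT arrays, without overlap, and was not called (1.70 ± 0.71, adjusted p = 0.404).

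In CD8 cells at 0 h, 1 member was again called, against 1.63% of all genes. Il18bp, a secreted protein that captures IL-18, was 6.37 and 7.14 in KO and 5.59 and 5.31 in WT arrays and was at least 2.19-fold higher in KO (1.30 ± 0.27, adjusted p = 0.0307). The call needed both unstimulated WT arrays and replicate 2 of the KO pair (without 1 of them, adjusted p = 0.132 to 0.306), the last being 1 of the arrays with a high 3′ to 5′ difference, and each left 0 members called. The 7 B cell markers summed to 7.33 to 7.74 in CD8 KO and 8.02 to 8.17 in CD8 WT arrays at 0 h, and the memory and effector markers to 9.99 to 10.22 and 9.76 to 9.82, and their part in this difference was not tested. With the block 3 members were called (3.5% of all genes), the added ones being Il18rap (1.08 ± 0.22, adjusted p = 0.0226) and Il12rb1 (0.74 ± 0.18, adjusted p = 0.0477), both higher in KO. Il7r at 0 h was 11.91 and 11.69 in CD4 WT, 12.09 and 11.86 in CD4 KO, 11.56 and 11.75 in CD8 WT and 11.43 and 11.87 in CD8 KO arrays, with KO and WT overlapping in both lineages and differences of 0.18 ± 0.55 and -0.01 ± 0.55.

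**Figure D3:**
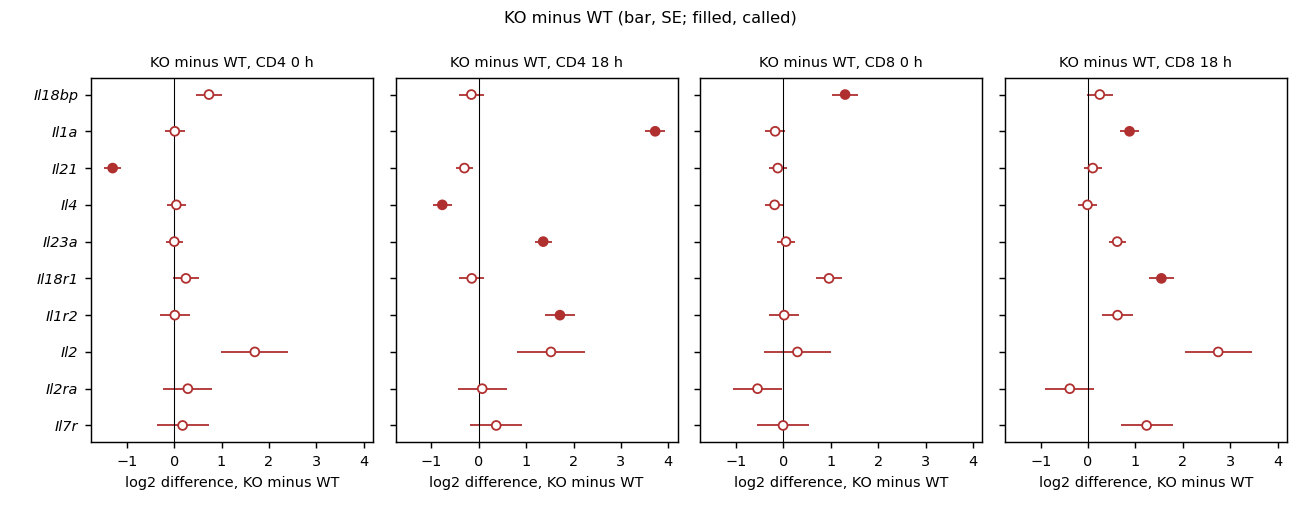
Difference of KO and WT (log2, bars SE of the fit) in each lineage and time for the 7 members called in any of these comparisons and for Il2, Il2ra and Il7r; filled circles were called. The largest called difference is that of Il1a in CD4 cells at 18 h, 3.72, and Il2, with the widest bars (SE 0.71), was not called in this fit.

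Whether these differences themselves varied between lineages or times was tested directly. The KO effect differed between CD8 and CD4 cells for 0 members at 0 h (2 at an unadjusted p under 0.05; 0% of all genes called) and for 1 member at 18 h (0.0403% of all genes). That member was Il1a, whose KO effect was smaller in CD8 cells by 2.85 ± 0.29 on the log2 scale (KO effect in CD8 minus that in CD4 = -2.85, adjusted p = 0.0021); 2 members were called without CD8 KO 18 h replicate 1. The response to stimulation differed between KO and WT for 2 members in CD4 cells (1.41% of all genes), Il1a by 3.71 ± 0.29 (adjusted p = 0.000212) and Il23a by 1.36 ± 0.26 (adjusted p = 0.026). Il1a kept this call whichever array was left out, while Il23a lost it without any 1 of the 8 CD4 arrays (adjusted p = 0.082 to 0.103). The count of 2 became 4 without CD8 KO 18 h replicate 1 or 2, and 1 without any CD4 array other than WT 18 h replicate 1. In CD8 cells the response differed for 0 members in limma (7 at an unadjusted p under 0.05; 0.266% of all genes called). With the block, Il12rb1 responded less in CD8 KO than WT cells (-1.38 ± 0.25, adjusted p = 0.0441; 0.492% of all genes) and Il1r2 more in CD4 KO than WT cells (1.70 ± 0.35, adjusted p = 0.0275; 2.82% of all genes). The groups at 18 h enter several of these comparisons, so they are not independent of each other.

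Stimulation for 18 h moved the cytokines in few cases, with Il2 foremost. In CD4 WT cells 17 members were called, of which 6 were higher and 11 lower (26.2% of all genes called, 12.2% higher and 14.0% lower). In CD4 KO cells the counts were 19, 8 and 11 (24.2%, 11.1% and 13.2%). In CD8 WT cells they were 8, 3 and 5 (15.2%, 8.21% and 7.0%), and in CD8 KO cells 10, 4 and 6 (7.54%, 3.67% and 3.86%). As shares of 66 members these were 25.8%, 28.8%, 12.1% and 15.2% in the same order. The median difference of the members was -0.14, 0.08, -0.07 and 0.02, beside -0.08, 0.03, -0.06 and 0.01 for all genes. In CD8 KO cells the count rested on single arrays: it was 16 without replicate 1 at 18 h, 6 without replicate 2 at 18 h and 5 without replicate 1 at 0 h.

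Il2 was 3.76 and 4.43 in CD4 WT and 6.51 and 5.09 in CD4 KO arrays at 0 h, all below the 18 h values given above. It rose at least 56.4-fold in CD4 WT cells (7.35 ± 0.71, adjusted p = 1.19e-05). In CD4 KO cells, where 1 of the 0 h arrays lay under the guide, it rose by 7.17 ± 0.71 (adjusted p = 1.21e-05). In CD8 cells at 0 h it was 4.06 and 4.11 in WT and 3.76 and 4.99 in KO arrays. It rose at least 9.58-fold in CD8 KO cells (4.51 ± 0.71, adjusted p = 0.00215), and in CD8 WT cells, where the replicates at 18 h stood 4.88 against 7.39, the difference was 2.06 ± 0.71 (adjusted p = 0.07; called with the block, 2.06 ± 0.58, adjusted p = 0.0254). Il3, a growth factor for myeloid precursors that activated helper cells secrete, was 5.27 and 5.77 in CD4 KO 18 h and 5.35 and 2.95 in CD4 WT 18 h arrays, and between 2.49 and 3.36 in all others. It rose in CD4 KO cells (2.93 ± 0.53, adjusted p = 0.00108). Its rise in CD4 WT cells (1.52 ± 0.53, adjusted p = 0.0465) rested on replicate 1 and was 0.32 without that array (adjusted p over the 13 arrays whose loss ended the call, 0.0566 to 0.496). Among dimmer cytokines, Il1a rose by 3.62 ± 0.20 and Il23a by 1.49 ± 0.18 in CD4 KO cells, where WT cells gave -0.09 ± 0.20 and 0.14 ± 0.18. Il1a also passed in CD8 KO cells (0.73 ± 0.20, adjusted p = 0.0494), a call lost without any 1 of 9 arrays. Il4 rose in CD4 WT cells (0.62 ± 0.20), and Il21 and Il11, a cytokine of the IL-6 group, fell there by 1.08 and 0.74; the calls of Il4 and Il11 were each lost in 3 of 16 runs with 1 array left out (adjusted p = 0.0721 to 0.218).

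The receptor chains that rose were Il2ra, Il2rb, Il12rb1, Il12rb2 and, in CD4 KO cells, the decoy receptor Il1r2. Il1r2 was 4.76 and 4.47 at 0 h and 6.80 and 6.54 at 18 h in CD4 KO arrays (2.06 ± 0.32, adjusted p = 0.000381), a call held whichever array was left out. Il2ra was 4.33 and 3.04 in CD4 WT, 4.51 and 3.43 in CD4 KO, 3.34 and 3.88 in CD8 WT and 2.64 and 3.48 in CD8 KO arrays at 0 h. Every 18 h value, 7.48 or higher, lay above every 0 h value. It rose at least 8.01-fold and 8.42-fold in CD4 WT and KO and at least 6.89-fold and 5.27-fold in CD8 WT and KO cells (4.95, 4.73, 4.80 and 4.96, each ± 0.52, adjusted p = 0.00013 or less), and all 4 calls held whichever array was left out. Its response differed between KO and WT by -0.22 ± 0.73 in CD4 and 0.16 ± 0.73 in CD8 cells. The sort had removed CD25+ cells, so that the 0 h level of Il2ra is tied to the gate. Il2rb, the beta chain shared by the IL-2 and IL-15 receptors, was 6.09 and 5.26 in CD4 WT 0 h and 7.43 and 8.05 in CD4 WT 18 h arrays. It rose by 2.06 ± 0.28 there (adjusted p = 0.000127) and 1.94-fold in CD4 KO cells (0.96 ± 0.28, adjusted p = 0.0221, lost in 3 runs), with 6.15 and 6.19 at 0 h and 6.99 and 7.27 at 18 h. The difference of these responses, -1.11 ± 0.40, did not pass (adjusted p = 0.277). Il12rb1, a chain of the IL-12 and IL-23 receptors, was 4.46 and 4.28 in CD4 WT and 4.90 and 4.64 in CD4 KO arrays at 0 h and 8.20, 7.56, 7.74 and 7.47 in the same order at 18 h. It rose at least 4.78-fold in CD4 WT, 3.94-fold in CD4 KO and 2.76-fold in CD8 WT cells. In CD8 KO cells it went from 5.67 and 5.98 to 6.46 and 6.44 (0.63 ± 0.22, adjusted p = 0.118; with the block 0.63 ± 0.18, adjusted p = 0.0376), and the difference from WT in response, -1.38 ± 0.32, passed only with the block (adjusted p = 0.136 without it). Il12rb2, the signaling chain of the IL-12 receptor, passed in CD8 WT and CD8 KO cells with small differences of 0.73 and 0.70 ± 0.18, at values between 3.29 and 4.49 that lie under the guide of 5.63, each lost in 3 runs.

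**Figure D4:**
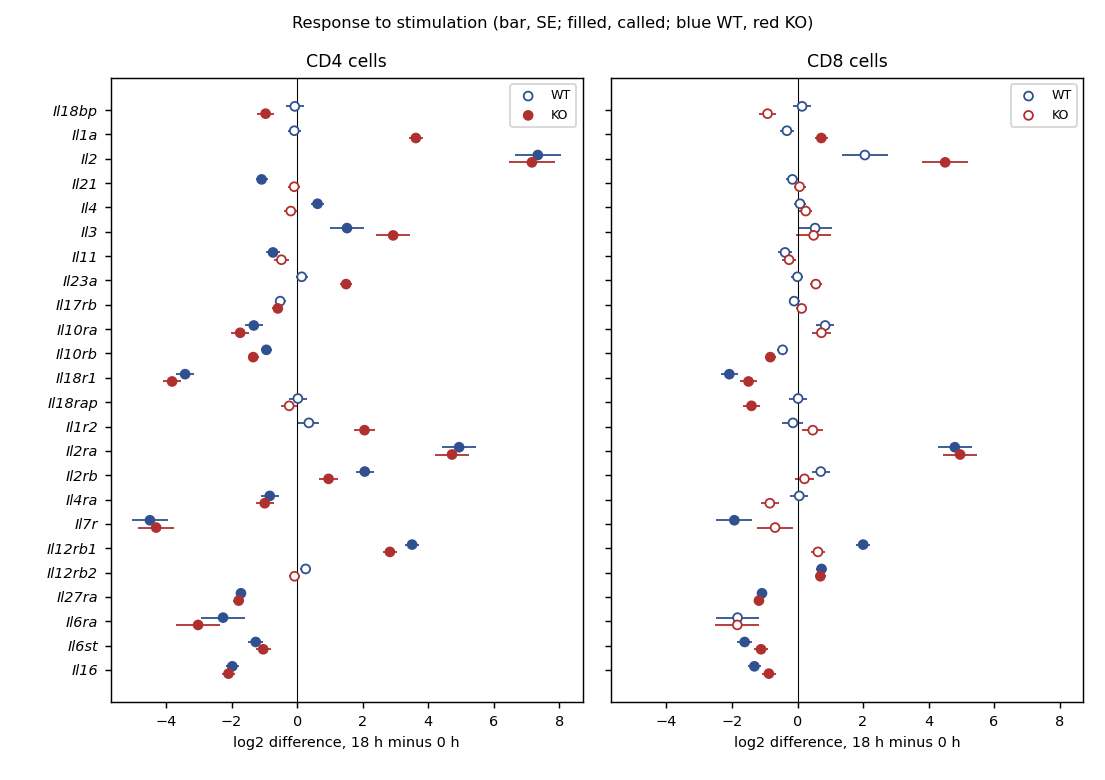
Difference of 18 h and 0 h (log2, bars SE of the fit) for the 24 members called in at least 1 of the 4 responses, in CD4 and CD8 cells; blue is WT, red KO, and filled circles were called. Il2, Il2ra and Il12rb1 lie to the right and Il7r, Il18r1 and Il6ra to the left, and in CD8 cells Il2 reached 2.06 in WT and 4.51 in KO.

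The receptor chains that fell included those that a naive cell uses at rest. Il7r was 7.49 and 7.12 in CD4 WT 18 h and 7.29 and 8.05 in CD4 KO 18 h arrays, below all 0 h arrays. It was 22.5-fold and 19.8-fold lower than at 0 h (-4.49 ± 0.55, adjusted p = 5.95e-05, and -4.30 ± 0.55, adjusted p = 8.47e-05). In CD8 cells at 18 h it was 10.82 and 8.64 in WT and 11.53 and 10.40 in KO arrays. It was lower by 1.93 ± 0.55 in WT (18 h minus 0 h = -1.93, adjusted p = 0.0301, lost in 3 runs, and -0.83 without WT 18 h replicate 2) and the KO difference was -0.68 ± 0.55 (adjusted p = 0.563). In its other probe set, which fell in both CD4 responses too, CD8 KO cells gave -2.01, and KO minus WT in CD8 cells at 18 h was -0.52 instead of 1.24. With adjustment over all probe sets, neither Il7r probe set was called in the CD8 WT response. Il18r1 fell in all 4 responses (-3.42 and -3.82 in CD4 and -2.08 and -1.49 in CD8 cells, WT then KO, each ± 0.27). Its 0 h values ran from 8.39 to 9.72 and its 18 h values from 5.20 to 8.18, without overlap. Il18rap, the second chain of the same receptor, was 5.88 and 5.17 in CD8 KO 0 h arrays and between 3.48 and 4.62 in all others, and fell in CD8 KO cells (-1.41 ± 0.27, adjusted p = 0.00619, lost without CD8 KO 0 h replicate 1).

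Il6st, which encodes the signal transducer gp130, fell in all 4 responses (-1.26 and -1.04 in CD4 and -1.61 and -1.11 in CD8 cells, WT then KO, each ± 0.23), from 9.85 to 10.23 at 0 h to 8.33 to 9.42 at 18 h. Of its 3 probe sets only that read here was called, and another gave 0.20 and 0.01 in the CD4 responses. Il6ra, the IL-6 receptor alpha chain, fell in CD4 WT (-2.26 ± 0.67, lost in 3 runs) and CD4 KO cells (-3.02 ± 0.67). Its other probe set gave -0.76, not called, and -1.59. Il27ra, a chain of the IL-27 receptor, fell in all 4 by between 1.08 and 1.79, with every 0 h value between 9.72 and 10.16 and every 18 h value between 8.0 and 9.16. Il16, which encodes a ligand of CD4 that leukocytes store as a precursor, fell by 1.98 and 2.10 in CD4 and by 1.32 and 0.87 in CD8 cells, WT then KO, from 9.85 to 10.44 at 0 h to 7.99 to 9.41 at 18 h, and its 2 probe sets had the same direction in all 4. Il10rb, the shared chain of the IL-10 family receptors, fell in CD4 WT, CD4 KO and CD8 KO cells by 0.94, 1.34 and 0.83. Il10ra, the IL-10 binding chain, was 5.53 and 5.45 at 0 h and 4.61 and 3.72 at 18 h in CD4 WT arrays, and 5.60 and 5.84 against 4.11 and 3.85 in CD4 KO arrays. It fell by 1.32 and 1.74 there, but its other probe sets gave between -0.43 and 0.07 and neither was called. Il4ra, the IL-4 receptor alpha chain, fell by 0.84 and 0.99 in CD4 WT and KO cells, calls lost in 5 and 3 runs, and neither of its other probe sets was called, the smallest differences being -0.10 and -0.28. Il18bp (-0.96) and Il17rb (-0.59), a chain of the IL-25 receptor, fell in CD4 KO cells, lost in 2 and 4 runs. Il17ra, the brightest of the IL-17 family and a receptor chain for IL-17A, moved by -0.85 to -1.37 ± 0.64 and was not called. With the block the counts in CD4 WT, CD4 KO, CD8 WT and CD8 KO cells were 19, 20, 12 and 14 (29.3%, 27.2%, 19.1% and 12.4% of all genes). Among the calls added, Il17ra fell in CD4 WT, CD4 KO and CD8 WT cells (-1.36, -1.37 and -1.18, each ± 0.36). Il6ra fell in CD8 WT and KO cells (-1.83 and -1.84, each ± 0.37), Il18bp and Il21r fell in CD8 KO cells (-0.92 and -0.67), Il15ra rose in CD4 WT cells (1.03 ± 0.28) and Il10ra in CD8 WT cells (0.84 ± 0.27).

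**Figure D5:**
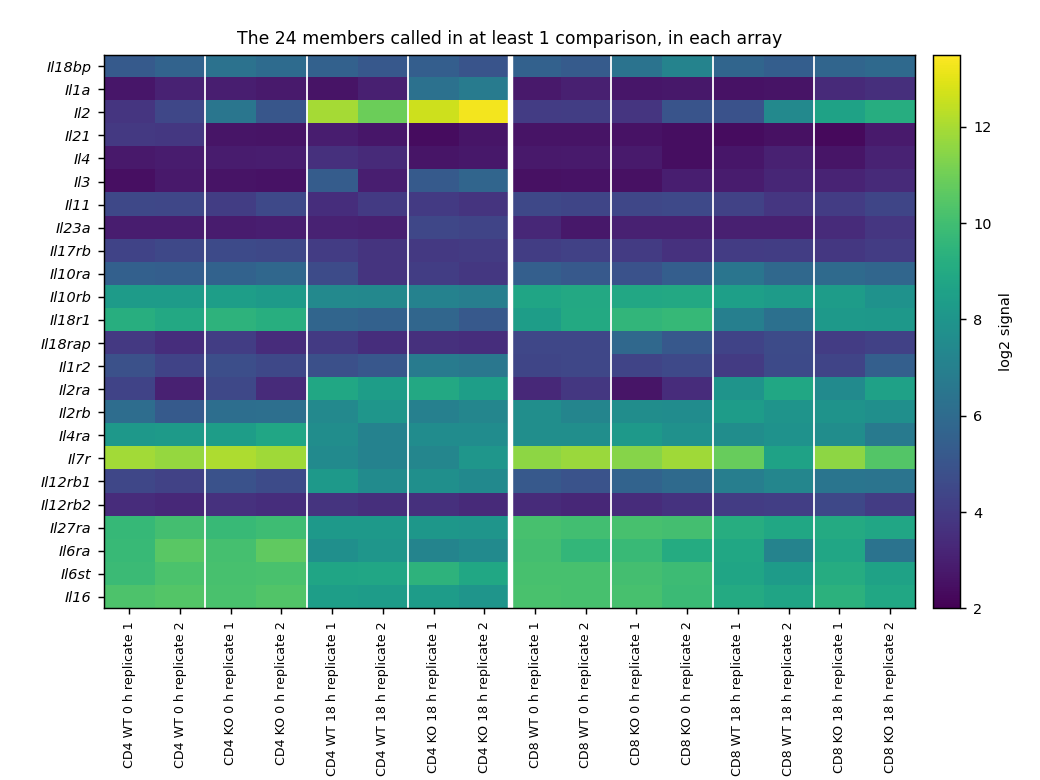
Signal (log2, colour scale) of the 24 members called in at least 1 comparison, in rows by family, in each of the 16 arrays in columns; white lines part the groups and the thick line CD4 from CD8. Il7r, Il27ra, Il6ra, Il6st and Il16 are bright at 0 h, and Il2 is bright at 18 h in CD4 cells.

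The lineages were compared within each genotype and time. In WT cells at 0 h 2 members were called (1.28% of all genes). Il2rb was 3.44-fold higher in CD8 cells (7.69 and 7.22 against 6.09 and 5.26; 1.78 ± 0.28, adjusted p = 0.00552). Il21 was lower there, its CD4 values of 3.93 and 3.88 standing against 2.60 and 2.62, all under the guide. The Il2rb call was lost without CD4 WT 0 h replicate 2 or CD8 WT 0 h replicate 1, which left 1 member. In KO cells at 0 h 4 were called (2.31% of all genes): Il2rb, Il12rb1 and Il18rap higher in CD8 cells by 1.43, 1.05 and 1.73, and Il17rb lower by 0.72 (CD8 minus CD4 = -0.72). The count was 0 without CD4 KO 0 h replicate 2 and 1 without CD4 KO 0 h replicate 1 or either CD8 KO 0 h array. In WT cells at 18 h 5 were called (3.28% of all genes). Il2 was 39.5-fold lower in CD8 cells, 1 of whose arrays lay under the guide (-5.30 ± 0.71, adjusted p = 0.00139), and Il7r, Il10ra, Il10rb and Il27ra were higher in them by 2.43, 2.02, 1.02 and 0.84. The count was 3 without CD4 WT 18 h replicate 1 and 2 without CD8 WT 18 h replicate 1. In KO cells at 18 h 13 were called (13.7% of all genes). Il2, Il1a, Il3, Il1r2, Il12rb1 and Il23a were lower in CD8 cells, Il2 by 16.9-fold and Il1a by at least 1.86-fold, and Il7r, Il18r1, Il10ra, Il10rb, Il16, Il27ra and Il12rb2 were higher, Il7r by 9.82-fold and Il18r1 by 6.27-fold. The other Il7r probe set gave 2.29 in WT and 1.53 in KO cells at 18 h, neither called. With adjustment over all probe sets, as used for these, the Il7r probe set read here was called in KO but not in WT cells. Of the other Il10ra probe sets, 1 gave 0.77 in WT (called) and 0.45 in KO cells and 1 gave 0.04 and 0.05. With the block Il12rb1 was also lower (-0.79) and Il18r1 higher (0.95) in WT CD8 cells at 18 h. In KO cells Il2ra was lower in CD8 cells at both times (-0.91 and -0.68) and Il21r at 18 h (-0.61).

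The response of WT cells to stimulation differed between the lineages for 2 members (0.371% of all genes). Il2 rose less in CD8 cells (difference of responses -5.29 ± 1.01, adjusted p = 0.0494), and Il10ra was 2.17 ± 0.40 higher in its response (adjusted p = 0.041), with another of its probe sets giving -0.22. With the block Il12rb1 was also called (-1.50 ± 0.25, adjusted p = 0.0207). The count was 1 without CD4 WT 18 h replicate 1 and 0 without any 1 of 12 others, all but CD8 WT 18 h replicate 2 and both CD8 KO 18 h arrays. The difference of Il7r responses, 2.57 ± 0.78, was not called (adjusted p = 0.224).

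Many members lie side by side in the genome. In RefSeq order, no coding gene separates Il2 from Il21 on chromosome 3, Il1a from Il1b or Il2ra from Il15ra on chromosome 2, Il4ra from Il21r on chromosome 7, or Il18r1 from Il18rap on chromosome 1, where Il1r2, Il1r1 and Il1rl2 precede them with 1 coding gene between. Il2 rose in CD4 WT cells while Il21, under the guide in all arrays, fell. Il2ra rose in all 4 responses while Il15ra was called in none (with the block, in CD4 WT cells). In the chromosome 1 cluster, Il1r2 rose and Il18r1 fell in CD4 KO cells, and Il1r1 and Il1rl2 were not called. The 3 members whose windows held the GABP motif, Il15ra, Il1f8 and Il20, were not called between KO and WT with or without the block. Their differences lay between -0.24 and 0.19. Every group mean of Il1f8 and Il20 lay under the guide, so a fall in their transcript could hardly have been seen. Those of Il15ra, from 6.03 to 7.07, lay above it, and its differences had an SE of 0.37. Members without a window could not be searched for the motif.

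Genes that act with the members were taken as 3 lists. Of 20 measured kinases, STAT factors and feedback genes 2 were called between KO and WT in CD4 cells at 18 h, 2 in CD8 cells at that time, and 0 in unstimulated cells. The share of all genes in the first 2 comparisons was 6.86% and 2.75%. Jak2, a kinase used by the IL-3 and IL-12 receptors, was higher in KO in both (1.05 and 0.73, each ± 0.14, adjusted p = 0.000622 and 0.018). Stat4, the factor downstream of IL-12, was lower in CD4 KO cells (-0.85 ± 0.23, adjusted p = 0.0436) and Socs1, a feedback inhibitor, in CD8 KO cells (-1.31 ± 0.32, adjusted p = 0.047). In WT stimulation 4 rose and 3 fell in CD4 cells and 3 and 4 in CD8 cells (of all genes, 26.2% and 15.2% were called), led by Socs2 (3.44 and 4.79), Cish (2.19 and 2.62) and Socs3 (-3.33 and -1.15), all feedback inhibitors of cytokine receptors. Of 15 partner subunits and related cytokines 1 was called between KO and WT, in CD4 cells at 18 h, where 6.86% of all genes were: Csf2, which encodes GM-CSF, was 6.02 and 7.44 in KO and 4.64 and 3.59 in WT arrays (2.61 ± 0.47, adjusted p = 0.00475). Ifng (4.0 and 5.88) and Lif (2.68 and 2.31) rose in WT CD4 and CD8 cells. Ifngr1, a chain of the interferon gamma receptor, fell in CD4 WT cells (18 h minus 0 h = -1.5). Of 6 adaptors of IL-1 and IL-17 signaling, Irak1 and Traf3ip2 were lower in CD4 KO cells at 18 h (-0.80 and -0.96, adjusted p = 0.0148 and 0.0146). In WT stimulation Sigirr, an inhibitor of this signaling, fell in CD4 cells (-1.23), and Traf3ip2, the adaptor of the IL-17 receptor, fell in CD4 (-0.99) and in CD8 cells (-0.86).

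The remaining 42 members were called in no comparison without the block. Their means lay between 2.45 and 8.52 with a median of 3.54, and their differences between -0.57 and 0.67 for KO and WT and between -1.37 and 1.03 for 18 h and 0 h. They included the cytokine genes Il15, Il7, Il9, Il5, Il13, Il6, Il10, Il17a, and the receptor genes Il21r, Il15ra and Il1rap.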

How the data were processed

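RNA of 16 samples was measured on Affymetrix arrays (M430 2.0 in the study's methods). Per the labels, the authors used affy and limma (versions not given in the sources used here). The deposited table holds log2 signal for 22690 probe sets, from 1.62 to 14.45; the exact summary method is not given in the sources used here. Such scaling between arrays cannot show a change in total RNA per cell. Probe sets naming 1 gene (20393) were reduced to 12394 genes, each read by its probe set of highest mean; 691 naming several genes and 1606 naming none were left out, 2 of the former naming members. Groups followed the sample titles. limma 3.58.1 in R 4.3.3 was fitted to the 8 groups (8 residual and 4.32 prior degrees of freedom) and 17 contrasts were tested with Benjamini-Hochberg adjustment over all genes; calls needed an adjusted p under 0.05 and a fold over 1.5. The study's methods test relative to a 1.5-fold cutoff; that was an alternative here. The others were the median over probe sets, a filter on dim genes, centring arrays on their medians, a replicate block, leaving out 3 arrays of high 3′ to 5′ difference, and leaving out each array. The fit was tested on simulated data. Named were Il2, Il2ra, Il7r and Il1a, every member called, the brightest of each family, members whose probe sets disagreed, and the called or largest genes of 3 lists of related genes. Members and lists were chosen with earlier results of these data known. RefSeq windows were scanned with Python 3.11.15. Per the study's methods each sort was divided between 0 h and 18 h. Deviations of same-numbered arrays correlated at 0.26 to 0.45 within CD4, 0.18 to 0.56 within CD8 and -0.60 to -0.12 between lineages. The block therefore paired equal numbers within a lineage only. What the negative values between lineages reflect was not tested, and the comparisons of CD8 with CD4 took no account of it. The pairing rests on that division and on these correlations, since the labels do not say what a number marks. Arrays give no read depth; their number limits the precision.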

Additional observations from a re-analysis of the deposited data

Results flagged for a closer look

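Effects that differed between groups by a direct test are gathered here, as values. The response of Il1a to stimulation was 3.71 higher in KO than in WT CD4 cells, and its KO effect at 18 h was 2.85 lower in CD8 than in CD4 cells (-2.85). The response of Il23a was 1.36 higher in KO than in WT CD4 cells. Between the lineages, the WT response of Il2 was -5.29 and that of Il10ra 2.17 in CD8 minus CD4 cells. Both Il1a results held in all 16 fits that lacked 1 array, that of Il23a in 8, that of Il10ra in 4 and that of Il2 in 3. Groups of 2 arrays are too small for a test of outlying arrays.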

How the results depend on the processing

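Of 91 calls of members, 52 were kept in all 16 runs with 1 array left out, and none of the 91 changed direction under any alternative. This does not cover differences that were not called, whose sign could change. Tested relative to 1.5-fold, the counts of called members were 0 between KO and WT at 0 h in CD4, 0 in CD8, 2 in CD4 at 18 h and 0 in CD8 at 18 h; 8, 4 and 2 in the responses of CD4 WT, CD8 WT and CD8 KO cells; 0, 2, 0 and 6 between lineages (WT 0 h, WT 18 h, KO 0 h and KO 18 h); and 1 and 0 in the response differences (CD4 by genotype, WT by lineage). With the filter on dim genes, they were 0 and 2 between KO and WT in CD4 at 0 h and 18 h, 1 between lineages in WT at 0 h and 1 in the CD4 response difference. With the median of probe sets, 1 was called between KO and WT in CD8 at 18 h and 0 in the WT response difference, and with centred arrays 1 in the latter. When the 3 arrays with 3′ to 5′ differences above 1 were dropped, the counts were 0 between KO and WT in CD8 at 18 h, 5 in the CD8 KO response, 2 between lineages in KO at 0 h, 1 in the CD4 response difference and 0 in the WT response difference. The cause was not tested, except that fewer arrays leave fewer degrees of freedom.

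With the replicate block within each lineage, which the pairing within lineages asks for, 3 members were called between KO and WT in CD8 at 0 h and 1 in the CD8 response difference. The block kept all 91 calls and added 23, which stand beside the results; it changed no other call.

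With 1 array left out, counts ranged from 0 to 1, 2 to 4, 0 to 1 and 1 to 7 between KO and WT (CD4 0 h, CD4 18 h, CD8 0 h, CD8 18 h), from 13 to 19, 14 to 20, 6 to 10 and 5 to 16 in the responses (CD4 WT, CD4 KO, CD8 WT, CD8 KO), and from 1 to 2, 2 to 6, 0 to 4 and 9 to 14 between lineages (WT 0 h, WT 18 h, KO 0 h, KO 18 h). They ranged from 1 to 4 and 0 to 0 in the response differences of CD4 and CD8 by genotype (4 without either CD8 KO 18 h array), 0 to 0 and 1 to 2 in the KO effect by lineage at 0 h and 18 h, and 0 to 3 in the WT response difference. A group left with 1 array was assumed to vary like the others. With 2 arrays a group, small differences could not be called, and most cytokine genes lay near the signal of genes of other tissues.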
